A study of Mus musculus with 6 samples.

Results

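Liver RNA of mice that lack chromogranin A (Chga), a protein of the secretory granules of neuroendocrine cells, was compared with that of wild-type mice for the genes that recognise and repair DNA damage, among them Rad51b and Atm. The genes were a named list of 31 repair and damage-signalling genes plus every gene whose symbol begins with Xrcc, Ercc, Fanc, Msh or Parp followed by a digit or letter. On probe sets annotated to 1 gene alone they came to 64 genes of the 12393 on the array, carried by 112 of 22626 probe sets. Trp53 was not analysed here. Each gene is given by its brightest probe set, and Rad51b and Atm by all of theirs. Rad51b and Atm headed the list because they had passed the threshold in this same comparison, so their values are a description with no test behind them. The other genes were taken by name, though the list was drawn up with earlier results of these data known.

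The 3 knockout and 3 wild-type mice were males aged 12 weeks, with 1 array per mouse and liver as the tissue. The labels trace both groups to 1 earlier publication and describe the mice as chromogranin A knockout or wild-type. Strain background, littermate status and feeding are not given in them. Values are probe set signals in arbitrary units, and a change is the knockout mean minus the wild-type mean of log2(signal + 16), a scale on which dim probe sets show less than their full change. Its standard error (SE) comes from the fitted model, and a ± after a group mean is an SD over 3 arrays.

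A cell meets breaks across both strands of DNA with kinases that sense and announce the break (Atm, Atr and the DNA-dependent protein kinase, whose catalytic subunit is Prkdc). The break is then mended either by end joining or by homologous recombination, which copies an intact sister molecule. Smaller lesions go through base excision, nucleotide excision and mismatch repair, each with its own recognition proteins. Most hepatocytes of an adult liver do not divide, and homologous recombination is known chiefly from dividing cells.

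Chga, the deleted gene, was too dim to check the labels. Its only probe set read 61.5, 44.5 and 231 in knockout and 167, 185 and 42.5 in wild type, above background on 1 array of each group. The background reference was the 95th percentile on each array of 27 control probe sets for bacterial genes, and it lay between 151 and 322, highest in knockout replicate 2. Between 64.4% and 76.9% of probe sets lay above it. All 8 measured hepatocyte markers of 10 listed exceeded it on every array, while 0 of 5 measured markers of dividing cells did. Of the lists for other cell types, the summed signal of 8 stellate cell markers lay between 10017 and 10598 in knockout and between 12233 and 15288 in wild type. Bright genes weigh most in such a sum, and Reln alone averaged 5084 in knockout against 7098 in wild type. By their changes 0 of the 8 were higher and 8 lower, Pdgfrb by only -0.014. The summed signal of 6 neutrophil markers lay between 1581 and 2162 against 1272 and 1558. Only 1 of these 6 was above background on all arrays, and 4 were higher and 2 lower in knockout. The sums of 4 cholangiocyte markers, of which 0 were above background on all arrays, ran from 602 to 658 against 666 to 909. Of these 4, 1 was higher and 3 were lower in knockout. The sums of the Kupffer cell, lymphocyte, erythroid and endothelial lists overlapped between the groups. None of these lists held a gene past the adjusted threshold of 0.05 (limma), against 3 genes at an unadjusted p under 0.05. Apoa2 was 1 of 8 hepatocyte markers that passed the filter on dim probe sets. Col3a1 and Reln were 2 of 6 such stellate markers. Of all genes that passed the filter, 10.3% had an unadjusted p under 0.05. The part of these differences in the results was not tested, and in whole liver fewer cells of a type cannot be told apart from less RNA per cell.

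The promoters of Rad51b and Atm are shown because these genes had the largest fall and the largest rise among the 48 genes that passed the filter on dim probe sets. The sequences are RefSeq's for assembly GRCm38.p6, from 250 bases before to 50 after the start. Capitals mark matches, on either strand, to CCAAT or to GGGCGG, the letters of the CCAAT box and the GC box. Rad51b, the first of 2 listed starts, lies at chr12:79297032-79297331 on the plus strand and Atm at chr9:53536622-53536921 on the minus strand.
Rad51b: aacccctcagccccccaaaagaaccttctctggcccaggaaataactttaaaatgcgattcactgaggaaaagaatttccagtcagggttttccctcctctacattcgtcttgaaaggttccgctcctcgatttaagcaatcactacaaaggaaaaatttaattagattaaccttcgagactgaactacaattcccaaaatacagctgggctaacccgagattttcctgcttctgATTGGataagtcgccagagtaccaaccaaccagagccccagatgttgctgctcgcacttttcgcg
Atm: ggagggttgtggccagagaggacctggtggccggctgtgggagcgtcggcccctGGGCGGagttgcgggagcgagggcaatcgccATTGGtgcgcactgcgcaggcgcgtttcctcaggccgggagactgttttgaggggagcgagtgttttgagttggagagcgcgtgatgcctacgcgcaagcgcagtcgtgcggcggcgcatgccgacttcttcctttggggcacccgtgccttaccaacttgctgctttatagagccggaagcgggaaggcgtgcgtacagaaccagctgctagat
The Rad51b window is poorer in G and C (45%) than that of Atm (64%), with 10 CpG dinucleotides against 28. The window of Atm overlaps by 125 bases that of its divergent neighbour Npat, which was not analysed here. Over the 53 repair genes with a listed promoter, the median was 59.7% G and C and 23 CpG, against 52.7% and 7 over 27025 genes. CCAAT stood in 28 of the 53 (52.8%) against 37.9% of all genes, and GGGCGG in 33 (62.3%) against 35.9%. The letters TTTCGCGC and TTTGGCGC, forms of the E2F site of genes of the division cycle, stood in 2 and 1 of the 53, against 0.318% and 0.537% of all genes. These are matches of letters in 1 window and were not tested.

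Rad51b, which works in homologous recombination in a complex with Rad51c, Rad51d and Xrcc2, was lower in knockout liver by its brighter probe set. This probe set read 1778, 2320 and 1982 in wild type and 278, 262 and 141 in knockout. The groups were far apart, and knockout replicates 2 and 3 lay under the background reference of their arrays, so that 1 of 3 knockout arrays measured the transcript. The means were 2027 ± 274 against 227 ± 74.7, a change of -3.12 ± 0.29 (SE, n = 3 per group), or 8.68-fold. With each knockout array set at no less than its background reference, an alternative chosen after seeing the data, the change was -2.93, or 7.63-fold. The size leans on dim knockout signals and was -2.25 with the largest pseudocount tried. The probe set passed the filter through its wild-type values.

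The other Rad51b probe set, annotated through a different transcript sequence, did not follow. It read 229, 142 and 165 in wild type, below the background reference on all 3 arrays. In knockout it read 525, 54.0 and 444, above background on 2 of 3 arrays. Knockout replicates 1 and 3 were the highest of the 6 arrays and replicate 2 the lowest, and the change was 0.44 ± 0.77, smaller than its SE. Averaged over both probe sets, the change of Rad51b was -1.34 (adjusted p = 0.309, limma), which ended its call. The files do not say which forms of the transcript each probe set reads.

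Atm, the kinase that starts the response to a broken chromosome, was higher in knockout liver. Its only probe set read 1039, 733 and 888 in wild type and 2188, 2063 and 1687 in knockout, above background on all 6 arrays. Every knockout array exceeded every wild-type array. The means were 1979 ± 261 against 887 ± 153, a change of 1.15 ± 0.19 (SE, n = 3 per group), or 2.22-fold, and 41 of the 8047 genes, Atm included, had a change this high or higher. With 1 array left out the change lay between 1.02 and 1.27. The adjusted p by which Atm was chosen was 0.0381 (limma), and over 17 alternatives it ran from 0.0280 to 0.156, past the threshold of 0.05 in 9. Leaving out an array ended the call for 5 of the 6: it was 0.0833 and 0.127 when knockout replicates 1 and 2 were dropped in turn, and 0.0728, 0.0902 and 0.110 for wild-type replicates 1, 2 and 3. It was also above the threshold with no filter (0.0643), without the intensity trend (0.156) and with the replicate number as a block (0.0864).

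**Figure D1:**
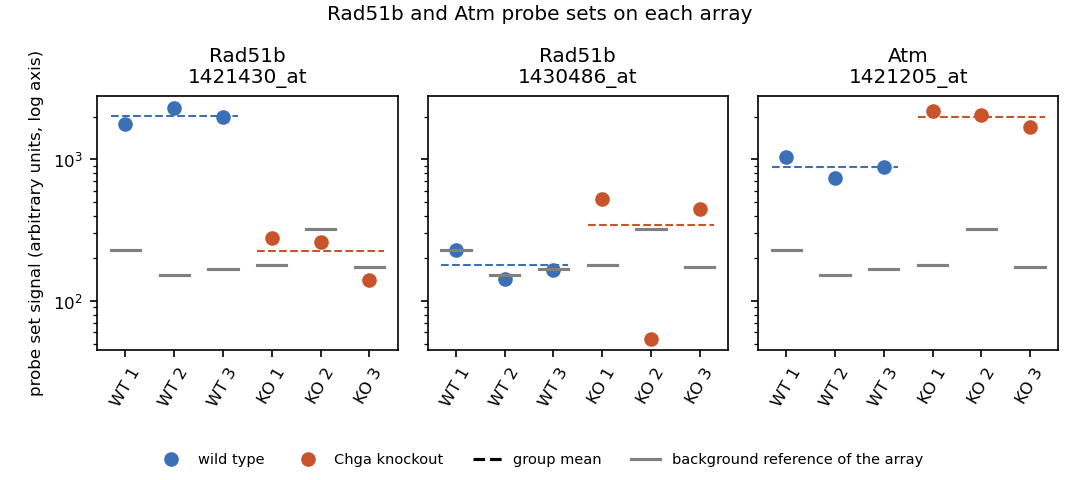
Signal of the 2 Rad51b probe sets and the Atm probe set on each array, in arbitrary units on a log axis; points are arrays, dashed lines group means and grey bars each array's background reference. By the brighter Rad51b probe set the knockout arrays sit at 141 to 278 against 1778 to 2320 in wild type, by the dimmer one the groups overlap, and by Atm the knockout arrays sit at 1687 to 2188 against 733 to 1039.

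Of the 64 genes, 48 passed the filter on dim probe sets, the upper 60% by mean over all arrays, and 47 were above background on every array. Only Rad51b and Atm passed the adjusted threshold, 1 lower and 1 higher. Over all genes that passed the filter 0.423% were called, 0.211% lower and 0.211% higher, and since the same comparison had picked both genes nothing is read from their count. Among the other 46 genes 0 passed (limma, smallest adjusted p = 0.350). At an unadjusted p under 0.05 there were 3 of them, Brca2, Xrcc5 and Rad21, which is 6.52% against 10.3% of all genes. The median change of all 64 genes was 0.0016, beside -0.0034 over the 12393 genes, with 32 higher and 32 lower. In 12 of the 64 the groups did not overlap, 7 lower in knockout (6.54% of all genes were) and 5 higher (7.08%), and without Rad51b and Atm in 10 of 62 (16.1%), against 13.6% of all genes. The SE of a kept gene ran from 0.11 to 0.70 with a median of 0.24. With 1 array left out, the change of 17 of the 46 other kept genes took both signs.

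**Figure D2:**
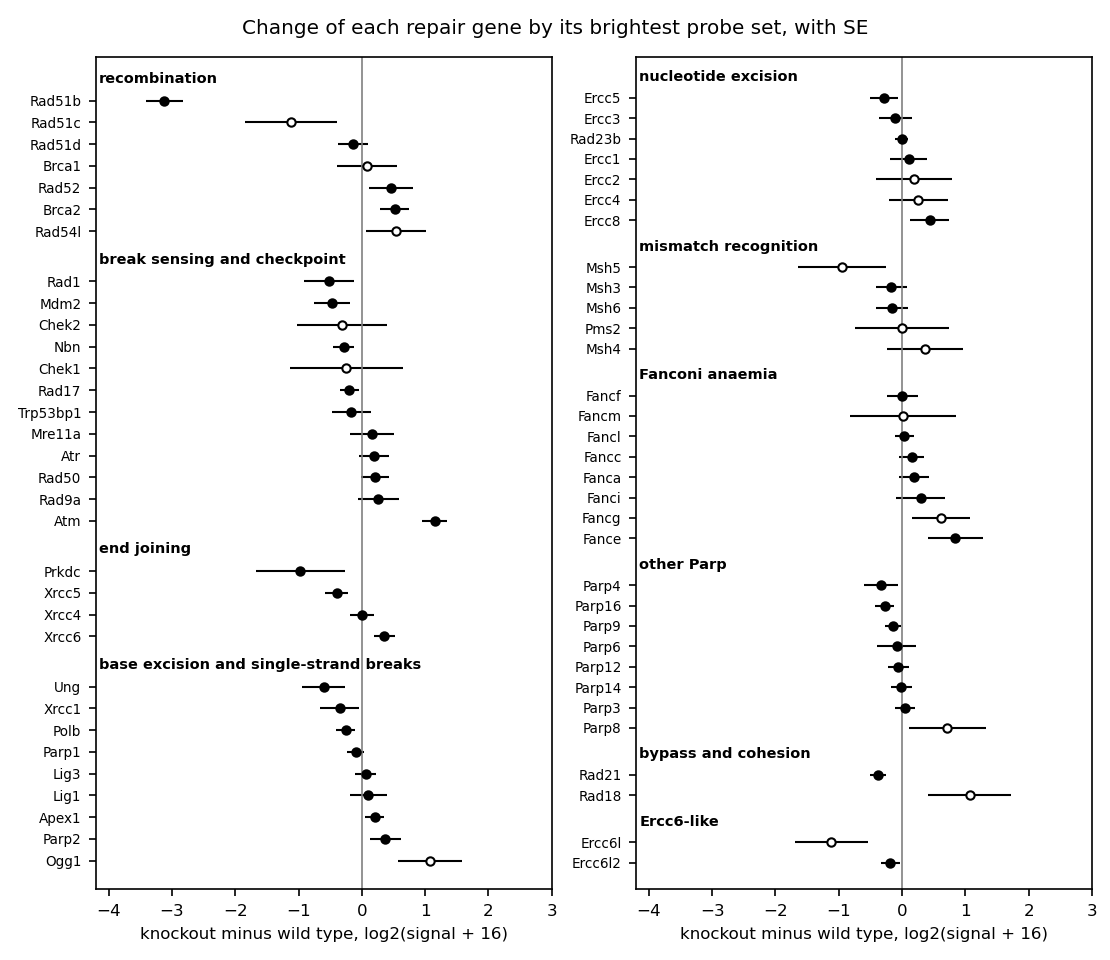
Change of each of the 64 genes by its brightest probe set, knockout minus wild type on log2(signal + 16), with SE bars and genes grouped by role; filled points passed the filter on dim probe sets, open points did not and carry the SE of the fit with no filter. Rad51b at -3.12 and Atm at 1.15 stand outside the other kept genes, which lie between -0.97 and 0.84.

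Among the other genes of homologous recombination, Brca2, a tumour suppressor needed for recombination, read 935, 1150 and 823 in knockout and 749, 686 and 573 in wild type. All knockout arrays lay above all wild-type arrays, at a change of 0.52 ± 0.23 that did not pass (adjusted p = 0.496). Rad51d, a partner of Rad51b, read 553, 604 and 699 against 631, 673 and 736, with overlapping groups and a change of -0.14 ± 0.24 (adjusted p = 0.889). Its dimmer probe set stood at 1.13 ± 0.65, where wild-type replicate 1 read 56.7 and the other 5 arrays 348 to 559. Rad52, which anneals single strands, was at 0.45 ± 0.35 (adjusted p = 0.707). Rad51c, another partner of Rad51b, was dim: it read 66.4, 135 and 20.9 in knockout, below background on all 3 arrays, and 278, 170 and 69.9 in wild type, above it on 2. Brca1, the partner of Bard1 in recombination, was above background on all arrays and still under the filter, at 0.079 ± 0.47. Rad54l, a motor protein of recombination that moves along DNA, read 343, 236 and 293 against 178, 191 and 213, with groups apart and 2 arrays of each above background. This dim probe set stood at 0.54 ± 0.48. The other probe sets of Rad54l, dimmer still, went the other way, at -0.83 ± 0.62 and -1.41 ± 0.69.

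The sensing kinases other than Atm did not pass. Atr, which answers to exposed single strands at stalled forks, read 1538, 1051 and 878 in knockout and 1046, 1046 and 858 in wild type, a change of 0.20 ± 0.23 (adjusted p = 0.825). Prkdc read 660, 59.5 and 456 against 382, 569 and 763, a change of -0.97 ± 0.70 that was -0.0030 without knockout replicate 2, the array with the highest background reference. Of the complex that holds broken ends and recruits Atm no subunit passed: its nuclease Mre11a stood at 0.16 ± 0.35 (-0.19 without wild-type replicate 2), Rad50 at 0.21 ± 0.22 and Nbn at -0.29 ± 0.17. Nbn, the subunit that binds Atm, read 1144, 1314 and 1071 in knockout and 1493, 1394 and 1418 in wild type. Its groups did not overlap, at an adjusted p of 0.613.

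Of the clamp that marks damaged forks, Rad1 was at -0.52 ± 0.39 and Rad9a at 0.26 ± 0.32, and Rad17, which loads it, was at -0.20 ± 0.15. The adaptor Trp53bp1 was at -0.17 ± 0.31 and Mdm2, the ligase that restrains p53, at -0.46 ± 0.28 (adjusted p = 0.631). None of these passed. The checkpoint kinases downstream were dim: Chek1, the target of Atr, was by its brightest probe set above background on 0 of 3 knockout and 1 of 3 wild-type arrays, and by 2 of its other probe sets on knockout replicate 1 alone. Chek2, the target of Atm, was above it on 2 and 3. Chek2 read 475, 630 and 66.8 against 437, 323 and 315, so that knockout held both its highest and its lowest arrays.

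End joining gave both directions within 1 protein pair. Xrcc5, the larger subunit of the Ku ring that caps broken ends, read 1155, 1257 and 1043 in knockout and 1289, 1637 and 1658 in wild type, a change of -0.40 ± 0.18 (unadjusted p = 0.0492, adjusted p = 0.501, limma). Xrcc6, the smaller subunit, read 1974, 1704 and 2052 against 1435, 1348 and 1689, a change of 0.36 ± 0.16 (adjusted p = 0.503). The groups did not overlap for either subunit, neither passed, and the difference between the subunits was not tested. Xrcc4, which supports the final ligation, was at 0.0044 ± 0.19 by its brightest probe set and at -0.51 ± 0.27 by the other.

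Base excision genes remove a damaged base and refill the gap. Of 9 members, 8 passed the filter and 0 the adjusted threshold (limma), with 0 at an unadjusted p under 0.05 and a median change of 0.058. Ung, which cuts out uracil, read 387, 809 and 359 in knockout and 873, 641 and 736 in wild type, at -0.61 ± 0.34 (adjusted p = 0.596). The polymerase Polb was at -0.26 ± 0.15 with groups apart. A kept probe set of Polb nearly as bright was at 0.16 ± 0.15 and a dimmer kept one at -0.059 ± 0.20, both with overlapping groups. The scaffold Xrcc1 was at -0.35 ± 0.31, and the break sensors Parp1 and Parp2 at -0.096 ± 0.13 and 0.37 ± 0.25. The endonuclease Apex1 (0.20 ± 0.15) and the ligases Lig1 (0.099 ± 0.29) and Lig3 (0.058 ± 0.17) did not pass either. Ogg1, which removes oxidised guanine, fell under the filter at 1.07 ± 0.50, reading 349, 698 and 409 against 167, 156 and 362.

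In nucleotide excision, which cuts out bulky lesions, 5 of 7 members passed the filter, and 0 passed at either the adjusted threshold or an unadjusted p under 0.05 (limma). The kept members lay between -0.28 for the nuclease Ercc5 and 0.44 for Ercc8, which acts when a lesion stalls transcription (0.093 without wild-type replicate 2). The nuclease subunit Ercc1 was at 0.11 ± 0.29, the helicase Ercc3 at -0.11 ± 0.26, both of either sign with 1 array left out, and the damage sensor Rad23b, at 6602 ± 527 against 6630 ± 138, at -0.0088 ± 0.11. Ercc2 and Ercc4 were dim. Of the 5 mismatch genes, Msh3 (-0.17 ± 0.25) and Msh6 (-0.16 ± 0.25) passed the filter and did not pass the test, at an adjusted p from 0.858 up. Pms2, Msh5 and Msh4 fell under the filter, and Msh4, a meiosis gene, was above background on 0 of 6 arrays, as no other of the 64 genes was.

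All 8 Fanconi anaemia genes, whose products unhook crosslinked strands, had a change above 0, from 0.0048 for Fancf to 0.84 for Fance, with a median of 0.17, although Fancm turned from 0.014 to -0.028 under quantile normalization. Over all genes 49.6% were above 0. Of the 6 Fanconi anaemia genes that passed the filter, Fancf and Fancl took both signs with 1 array left out. Fancm, under the filter, read 276, 221 and 87.5 in knockout and 34.0, 285 and 444 in wild type (0.014 ± 0.84). None of the 6 that passed the filter passed the adjusted threshold (limma), and 0 did at an unadjusted p under 0.05. Fance read 377, 657 and 418 in knockout and 307, 156 and 347 in wild type, with groups apart (0.84 ± 0.43, adjusted p = 0.572), and it lay just inside the filter, at the 40.4th percentile of mean signal. Fancg, at the 39.9th percentile, lay just outside at 0.62 ± 0.45. Fanca was at 0.19 ± 0.24 and Fancc at 0.15 ± 0.20. All 8 were above 0 by the brightest probe set only, since a second, dim probe set of Fanci stood at -0.029 ± 0.93.

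The other Parp genes, ADP-ribosyl transferases with roles mostly outside repair, gave no calls. Their kept members lay between -0.34 for Parp4 and 0.048 for Parp3, with 0 of 7 past the adjusted threshold (limma) or at an unadjusted p under 0.05. A second kept probe set of Parp3, nearly as bright, was at 0.49 ± 0.20 with groups apart (unadjusted p = 0.0345, adjusted p = 0.458, limma). Parp9, Parp12 and Parp14, known as interferon-induced, were at -0.14 ± 0.13, -0.063 ± 0.17 and -0.010 ± 0.16. Parp16, an enzyme of the endoplasmic reticulum, was at -0.27 ± 0.15, and Parp8 was dim. Rad18, a ligase that lets polymerases pass a lesion, was dim, at 1.07 ± 0.66 with 1 array of each group above background. Its other probe set was at -0.80 ± 0.77, and the mean of both gave 0.13. The cohesin subunit Rad21, which holds sister strands together, read 7304, 6378 and 6589 in knockout and 7575, 10241 and 8651 in wild type. Its groups did not overlap and its change of -0.38 ± 0.13 had an unadjusted p of 0.0148 (adjusted p = 0.350, limma), between -0.26 and -0.48 over the alternatives. The translocases Ercc6l and Ercc6l2 are named for their likeness to Ercc6. Ercc6l was dim, at -1.12 ± 0.58, above background on no knockout array and on only 1 wild-type array. Ercc6l2 was at -0.18 ± 0.15.

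Probe sets of the same gene often differed in the sign of their change. Of 13 repair genes with several kept probe sets, the changes had 1 sign in 5 (38.5%), Apex1, Mdm2, Parp3, Rad21 and Rad52, beside 52.3% of 2920 such genes on the array. This counts signs alone, also of changes smaller than their SE, such as those of Rad23b (-0.0088 ± 0.11 and 0.097 ± 0.16). The number of probe sets per gene was not matched. The 3 probe sets of Rad21 lay between -0.44 and -0.29 and those of Apex1 between 0.10 and 0.20. Those of Lig3, which ran from -0.12 to 0.71, and of Rad51d spread the furthest. Of the 68 kept probe sets of the repair genes, 2 passed the adjusted threshold, those of Rad51b and Atm described above, beside 0.376% of the 13576 kept probe sets.

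**Figure D3:**
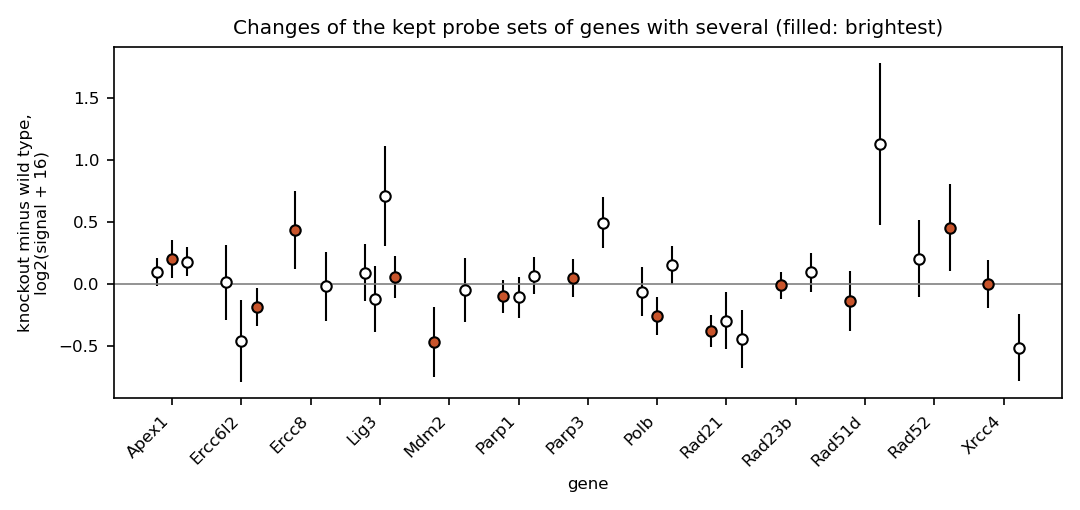
Change of each kept probe set, knockout minus wild type on log2(signal + 16) with SE bars, for the 13 repair genes with several; filled points are the brightest probe set of the gene. The Rad21 points all lie below 0 and the Apex1 points above it, while the points of Rad51d lie at -0.14 and 1.13.

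Of the 64 genes, only Rad51b and Fancm lie on the same chromosome as Chga, with 417 annotated genes between Rad51b and Chga. Of the 70 genes in that stretch that passed the filter 0 passed the adjusted threshold (limma) and 10 (14.3%) had an unadjusted p under 0.05, against 10.3% of all genes, with a median change of 0.027. The fall of Rad51b ranked 1 among the 8047 genes that passed the filter, so no gene near it could have matched its size. Of the 10 kept genes on each side 0 of 20 passed (limma). Of these 20, 4 had an unadjusted p under 0.05, against 10.3% of all kept genes, and 6 had groups that did not overlap, against 15.6%. The lowest was Srsf5, a splicing factor, at -0.36 ± 0.20. The nearest kept genes Zfyve26 and Zfp36l1 were at -0.15 ± 0.16 and 0.24 ± 0.091. The highest, Rdh11, a retinol dehydrogenase, read 7581 ± 2596 in knockout against 4121 ± 738 (0.84 ± 0.22, adjusted p = 0.169).

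Around Atm the neighbouring genes stood on both sides of 0. Of 20, 7 had an unadjusted p under 0.05 (10.3% of all kept genes did), 7 had groups that did not overlap (15.6%), and 1 passed the adjusted threshold (0.423%). That gene, Fdx1, a ferredoxin that passes electrons to mitochondrial cytochrome P450 enzymes, fell from 41753 ± 1451 to 29973 ± 1194 (-0.48 ± 0.08, adjusted p = 0.0413). Acat1, a mitochondrial thiolase and the nearest kept gene on the side away from Fdx1, was at -0.32 ± 0.090 (adjusted p = 0.211). On the far side of Fdx1, Alg9, an enzyme of glycan assembly, was at 0.55 ± 0.19 and Ppp2r1b, a phosphatase subunit, at 0.33 ± 0.15, neither passing. Rcn2, a calcium-binding protein at the edge of the window, read 370 ± 51.5 against 945 ± 54.5 (-1.32 ± 0.26, adjusted p = 0.0585). The median over the 20 genes was 0.026.

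**Figure D4:**
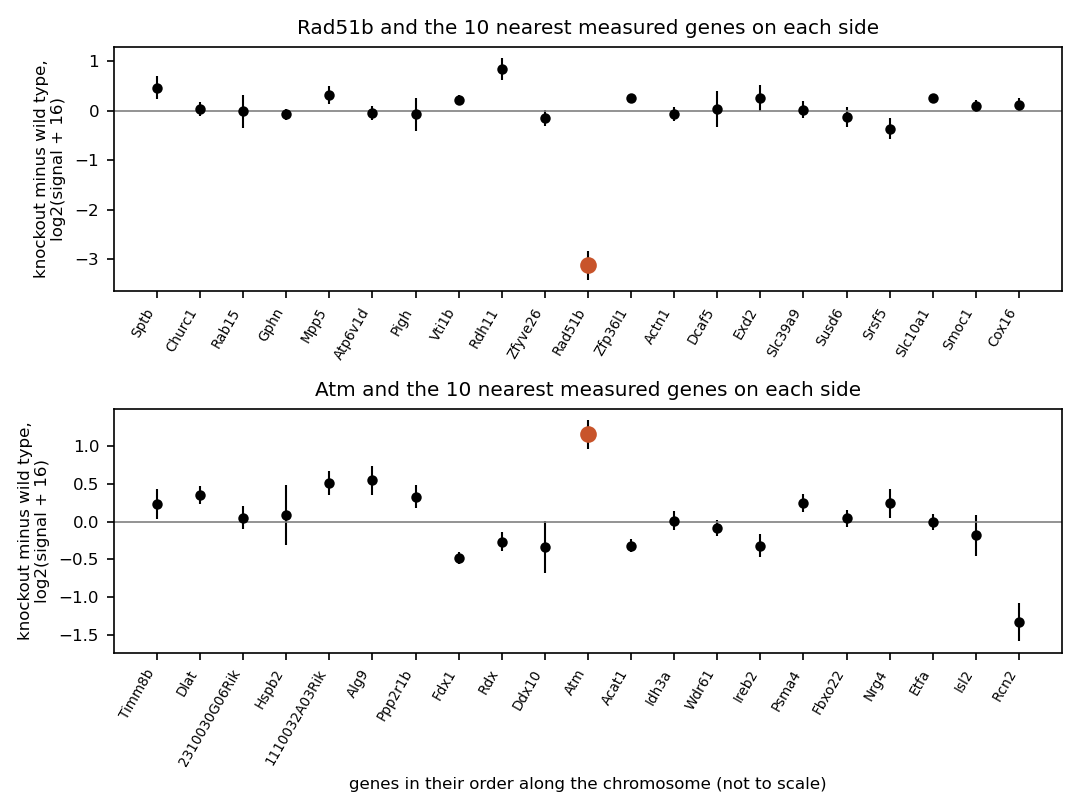
Change with SE, knockout minus wild type on log2(signal + 16), of Rad51b and of Atm (large points) and of neighbouring genes. These are the 10 nearest genes on each side that passed the filter on dim probe sets, in their order along the chromosome and not to scale. The neighbours of Rad51b lie between -0.36 and 0.84 around its -3.12, and those of Atm between -1.32 and 0.55 around its 1.15.

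Genes next to these in the pathways gave no calls. Of 27 measured p53 targets 22 passed the filter and 0 the adjusted threshold (limma). At an unadjusted p under 0.05 there were 3 of the 22, beside 10.3% of all kept genes. The median change was 0.20, beside -0.0034 over all genes, with 17 higher and 10 lower. Ei24, an apoptosis-related membrane protein, was at 0.36 ± 0.10 (adjusted p = 0.223), the death receptor Fas at 0.56 ± 0.22 and the polymerase Polk at 1.05 ± 0.45. Gadd45a (-0.70 ± 0.37) and Btg2 (-0.41 ± 0.22) were below 0 without passing, and Cdkn1a, the p53 target that stops the division cycle, was under the filter. The other recombination and fork genes (25 measured, 17 kept) had 0 calls, 0 at an unadjusted p under 0.05 and a median of 0.11, with Topbp1, an activator of Atr, at 0.44 ± 0.25 and the histone H2ax at 0.30 ± 0.19.

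The other base, nucleotide and mismatch repair genes (37 measured, 32 kept) had 0 calls (limma) and a median of -0.12. Of the 32, 2 had an unadjusted p under 0.05, beside 10.3% of all kept genes. They were Polk and Mgmt, a methyl transferase that repairs guanine (0.65 ± 0.28). The list of cohesin subunits, their loaders and the related Smc5 and Smc6 (9 measured, all kept) had 0 calls, 0 at an unadjusted p under 0.05 and a median of -0.086, with the cohesin subunit Stag2 at -0.39 ± 0.18 and Smc5 at -0.65 ± 0.31. Of 17 measured replication and division genes 9 passed the filter and 0 the adjusted threshold. Rrm2, a subunit of ribonucleotide reductase, was at 0.85 ± 0.30 and the cyclin Ccnd1 at -0.47 ± 0.17, each with groups apart and an unadjusted p under 0.05. At that p they were 2 of the 9 kept genes, beside 10.3% of all kept genes. With groups apart they were 2 of 17, beside 13.6% of all genes. Pcna, the replication clamp, stood at 6379 ± 475 against 6471 ± 758, a change of -0.017 ± 0.12.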

How the data were processed

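The labels' protocols give a guanidinium thiocyanate extraction with DNase treatment and biotinylated cRNA. GCOS 1.2 is the only software named, per the submitters' processing notes. The table as deposited holds an intensity on a linear scale for each probe set, 1 column per array and already scaled by the authors, since the mean after trimming 2% at each end lay between 2501.32 and 2501.42. The sources used here do not state the rule of that scaling. Of 22690 probe sets, 64 controls were left out. The platform annotation named 1 gene for 20380 and several for 691, and 1555 had none. Symbols were updated through RefSeq's GRCm38.p6 table (20351 matched).

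The upper 60% by mean log2(intensity + 16), 13576 probe sets, were tested in a linear model over all 6 arrays without covariates (limma 3.58.1, R 4.3.3). The fit used lmFit, then eBayes with its trend option, and Benjamini-Hochberg adjustment over all tested probe sets. The SE of a gene under the filter is from a fit with no filter. Arrays correlated at 0.964 to 0.974 within groups and 0.960 to 0.967 across, and 0 pairs were identical. The number of arrays limits the precision. The procedure was also run on simulated data, with normal noise and planted changes but no background floor or array effects. That run does not cover signals at background, such as those of Rad51b in knockout.

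The genes to name were Rad51b, Atm, any other member past the threshold, fixed genes of each role and its 3 kept genes with the smallest p, and in other lists the 2 with the smallest p. Other named genes were chosen after their values were seen. Members and lists were chosen with earlier results of these data known. Alternatives were other pseudocounts, quantile normalization, median centring, no filter, the upper 40%, eBayes without the trend, array weights, a replicate block, averaging a gene's probe sets, and each array left out.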

Additional observations from a re-analysis of the deposited data

How the results depend on the processing

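The number of repair genes called, 2 as reported, was 1 with no filter, in the upper 40% by mean, without the intensity trend, with the replicate block and with the mean of all probe sets. Rad51b was the gene lost in the upper 40%, which no longer holds it, and with the mean of all probe sets, and Atm in the other 3. With 1 array left out the number ran from 1 to 2. None of the 46 other repair genes that passed the filter was called under any of the 17 alternatives (lowest adjusted p = 0.245, limma). Over all probe sets 51 were called, and 85 with the largest pseudocount, 82 with array weights, 29 with the mean of all probe sets, 7 without the trend and 21 to 57 with 1 array left out, the low end without wild-type replicate 3 (21) or 1 (23). The count of repair genes with groups apart ran from 15 to 23 and the median change from -0.070 to 0.083 with 1 array left out; the first rises because fewer arrays overlap less often. Arrays with the same replicate number deviated from their group means with correlations of -0.059, -0.060 and -0.065, which showed no pairing by number. Arrays with different numbers ran from -0.020 to 0.076. With 3 arrays per group these values cannot exclude a pairing. With the replicate block 27 probe sets were called and 1 repair gene, Rad51b. Signals near background limit the 16 genes under the filter and the size of the Rad51b fall.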
